A study of Mus musculus with 7 samples.

Results

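The 10 genes described here are components of the mammalian circadian clock: the activators Clock and Npas2, the period genes Per1, Per2 and Per3, the cryptochromes Cry1 and Cry2, the nuclear receptor genes Nr1d1 and Nr1d2, and the output factor gene Dbp. They were taken by symbol from a table of raw read counts for 57010 genes, and each of the 10 symbols matched 1 gene. The counts come from poly-A RNA of live Tim4+ macrophages, which were stained for CD11b, MHC class II and Tim4 and sorted out of the peritoneal fluid of C57BL/6 mice. There were 4 libraries from the 12th day after m204 MTO had been injected (day 12) and 3 from the steady state. The labels do not spell out MTO, the series title speaks of peritoneal colorectal cancer, and the sources used here give neither age nor sex, nor whether a library pools several mice. No genetic alteration of the mice is named.

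Circadian clocks run in almost every mammalian cell as a transcriptional feedback loop. CLOCK or NPAS2 pairs with BMAL1 at E-box sequences and switches on the Per and Cry genes, whose proteins then silence their own activator. A further loop runs through the receptors REV-ERB alpha and beta, encoded by Nr1d1 and Nr1d2, which repress Bmal1 and other genes, while DBP and its relative TEF activate, and NFIL3 represses, genes with D-box sequences. Mouse peritoneal macrophages are known to hold such a clock. In mouse liver, Dbp, Tef, Nr1d1, Nr1d2 and Per3 peak at a similar time of day, and Bmal1, Npas2, Clock, Nfil3 and Cry1 peak at other times. The sources used here do not give the hour at which the cells were collected, so that a difference in collection time between the groups and the injection cannot be told apart in any result below.

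Libraries held 34578834 to 38586694 counts at day 12 and 32077050 to 36201021 counts in steady state. Levels are given in CPM, which scales a count to the size of its library, with TMM factors to set libraries against each other, and means as mean ± SD. In bulk RNA, fewer expressing cells and less RNA per cell cannot be told apart. Of 15 markers of resident peritoneal macrophages none was at 0, and their summed level was 52903 to 64608 CPM at day 12 and 77056 to 87093 CPM in steady state. The most abundant of the 15 was Fn1, at 20574 to 32629 CPM at day 12 and 48256 to 56441 CPM in steady state. Without it the other 14 summed to 31979 to 32868 CPM at day 12 and 28800 to 30652 CPM in steady state. Of the 15, 4 rose (Adgre1, Itgam, Gata6 and Mertk) and 4 fell (Timd4, Csf1r, Cd163 and Fn1) by edgeR's test. Summed B cell markers stood at 24.8 to 54.6 CPM at day 12 and 7.56 to 11.3 CPM in steady state, with 0 of 12 markers at 0. Summed monocyte and dendritic cell markers, of which Siglech was at 0 throughout, stood at 222 to 403 CPM at day 12 and 78.4 to 102 CPM in steady state. Without Cd209a, the most abundant of them, the sums overlapped between the groups, at 30.9 to 185 CPM at day 12 and 50.8 to 54.0 CPM in steady state. Summed neutrophil markers, with Ly6g at 0 throughout, stood at 111 to 201 CPM at day 12 and 453 to 473 CPM in steady state, of which Csf3r alone made up 107 to 196 CPM at day 12 and 431 to 447 CPM in steady state. Without Csf3r the other 11 summed to 1.99 to 5.14 CPM at day 12 and 22.5 to 30.2 CPM in steady state. Markers of T and NK cells summed to 1.78 to 6.81 CPM at day 12 and 1.74 to 2.67 CPM in steady state, with overlap. Sums of 3 further lists were low and did not overlap. Markers of mast cells, basophils and eosinophils summed to 0.901 to 2.31 CPM at day 12 and 0.280 to 0.639 CPM in steady state. Mesothelial and fibroblast markers summed to 1.53 to 1.75 CPM at day 12 and 0.0280 to 0.224 CPM in steady state. Colon tumour epithelial markers summed to 2.78 to 3.72 CPM at day 12 and 0.616 to 0.958 CPM in steady state. Markers at 0 were, by list in that order, Gata2, Prss34, Epx and Prg2, then Msln and Lum, then Cdx2, Krt20, Lgr5 and Tff3. The erythrocyte and platelet list summed to 16.0 to 81.3 CPM at day 12 and 465 to 697 CPM in steady state, nearly all of it Pf4, with Hba-a2 at 0. What part such cells had in the results was not tested.

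At day 12 the macrophages held more transcripts of Cry1 and fewer of Dbp, Per3, Nr1d1 and Nr1d2. Of the 10 genes, 9 passed the filter on low counts and could be tested, and Npas2 did not. By edgeR's quasi-likelihood test with an adjusted p under 0.05, 1 of the 9 rose and 4 fell, where 10.1% of all 15981 genes tested rose, 10.2% fell and 20.3% were called in either direction. The groups did not overlap in the same 5 genes, where 35.0% of all genes tested did not overlap, 16.5% with day 12 higher and 18.5% with day 12 lower. The median log2 fold change was -0.96 over the 9 and 0.00309 over all genes tested. Dbp and Per3 kept their calls whichever library was left out, and Cry1 lost its call without steady-state replicate 2. Nr1d1 lost its call without any 1 library other than day 12 replicate 3, and Nr1d2 without day 12 replicate 1 or 3 or any 1 steady-state library.

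**Figure D1:**
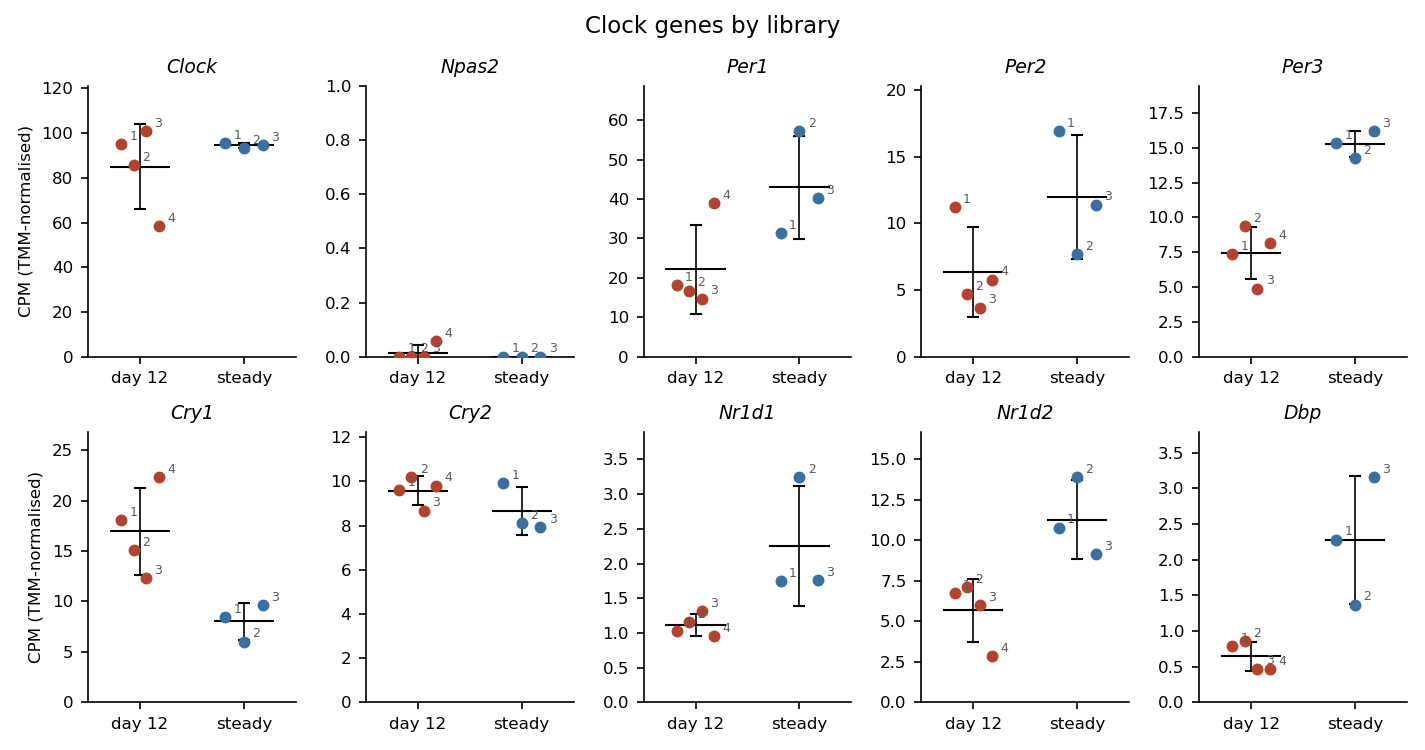
Levels of the 10 clock genes in each library, as TMM-normalised CPM on linear axes that start at 0, with day 12 libraries (red, left) and steady-state libraries (blue, right) numbered by replicate, and with bars for the mean and SD. All 4 day 12 libraries lie above all 3 steady-state libraries in Cry1 and below them in Per3, Dbp, Nr1d1 and Nr1d2.

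Clock encodes the basic helix-loop-helix partner of BMAL1 (ENSMUSG00000029238, chromosome 5, 76357715 to 76452639 in GRCm39). It was the most abundant of the 10 in CPM, with 95.2, 85.7, 101 and 58.4 CPM in day 12 replicates 1 to 4 and 95.5, 93.3 and 94.7 CPM in steady-state replicates 1 to 3. Only day 12 replicate 4 stood apart, and the groups overlapped. The log2 fold change was -0.15 (95% interval -0.53 to 0.23, edgeR adjusted p = 0.576), and -0.0061 without day 12 replicate 4. In that library, long transcripts as a class were also low, relative to the mean of the day 12 libraries, itself included. The median of genes in the top quartile of exon length minus that in the bottom quartile was -0.199 on the log2 scale. In the other day 12 libraries this difference was -0.0237 to 0.108. Whether this touches Clock, whose merged exons come to 13727 bases, was not tested.

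Npas2 encodes a relative of CLOCK that can take its place at BMAL1 (ENSMUSG00000026077, chromosome 1, 39232812 to 39402317). It had 2 reads in day 12 replicate 4 and 0 in each of the other 6 libraries, so no fold is given. A floor of 3 counts over a group stood for 0.0200 CPM at day 12 and 0.0298 CPM in steady state. Such floors take in counting error and nothing else, because PCR copies of a molecule are read as separate reads.

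Bmal1, listed in the table as Arntl and encoding the partner of both activators (ENSMUSG00000055116, chromosome 7, 112806672 to 112913333), is not among the 10 but completes this arm. It had 29.1, 23.3, 33.9 and 21.0 CPM in day 12 replicates 1 to 4, against 34.6, 43.0 and 40.8 CPM in steady-state replicates 1 to 3. All day 12 libraries lay below all steady-state libraries, by a small margin between day 12 replicate 3 and steady-state replicate 1. Bmal1 fell by 0.56 on the log2 scale (SE 0.17, edgeR adjusted p = 0.0461). The call was lost in 9 of 14 alternative fits, among them those with DESeq2 size factors (adjusted p = 0.0529) and without any 1 library other than day 12 replicate 3 (0.0503 to 0.165).

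The period genes encode the PER proteins, which bind CRY and carry it to the nucleus. Per1 (ENSMUSG00000020893, chromosome 11, 68986043 to 69000786) had 18.2, 16.8, 14.7 and 39.0 CPM in day 12 replicates 1 to 4, against 31.4, 57.2 and 40.3 CPM in steady-state replicates 1 to 3. The groups overlapped through day 12 replicate 4, and the other day 12 libraries were below all steady-state libraries. The log2 fold change was -0.96 (95% interval -1.79 to -0.12, edgeR adjusted p = 0.102), and without day 12 replicate 4 it was -1.37 with an adjusted p of 0.0052. DESeq2, fitted to all 7 libraries, called Per1 lower at day 12 (log2 fold change -0.95, adjusted p = 0.0190).

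Per2 (ENSMUSG00000055866, chromosome 1, 91343704 to 91387046) had 11.2, 4.70, 3.68 and 5.78 CPM in day 12 replicates 1 to 4, against 16.9, 7.67 and 11.4 CPM in steady-state replicates 1 to 3. The groups overlapped through day 12 replicate 1. The log2 fold change was -0.92 (95% interval -1.81 to -0.02, edgeR adjusted p = 0.139), and -1.33 without day 12 replicate 1 (adjusted p = 0.0199). Per1 and Per2 did not follow each other within groups: Per1 was highest in day 12 replicate 4 and steady-state replicate 2, and Per2 was highest in replicate 1 of both groups. The ratio of Per1 to Per2 read counts ran from 1.62 to 6.75 at day 12 and from 1.86 to 7.46 in steady state.

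Per3, the period gene that is dispensable for the core rhythm in mice (ENSMUSG00000028957, chromosome 4, 151088109 to 151129122), had the tightest values of the 3. It had 7.34, 9.37, 4.89 and 8.16 CPM in day 12 replicates 1 to 4, against 15.4, 14.3 and 16.2 CPM in steady-state replicates 1 to 3. The highest day 12 library was well below the lowest steady-state library. Per3 fell to 7.44 ± 1.89 CPM at day 12 (SD, n = 4), against 15.3 ± 0.956 CPM in steady state (SD, n = 3), a log2 fold change of -1.04 (SE 0.20, edgeR adjusted p = 0.0068). Over the 14 alternative fits, all of which kept the call, it ran from -1.14 to -0.88. The gene lies within the span of Camta1 on the same strand, with 0 shared exon bases in GENCODE M21.

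The cryptochromes encode the repressors that block CLOCK and BMAL1 most directly. Cry1 (ENSMUSG00000020038, chromosome 10, 84967564 to 85020928) had 18.1, 15.1, 12.3 and 22.3 CPM in day 12 replicates 1 to 4, against 8.42, 6.02 and 9.68 CPM in steady-state replicates 1 to 3. Every day 12 library was above every steady-state library. Cry1 rose to 17.0 ± 4.30 CPM at day 12 (SD, n = 4), against 8.04 ± 1.86 CPM in steady state (SD, n = 3), which was 2.11-fold (log2 fold change 1.08, SE 0.23, edgeR adjusted p = 0.0108). Without steady-state replicate 2, its lowest library, the log2 fold change was 0.90 (adjusted p = 0.0521).

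Cry2 (ENSMUSG00000068742, chromosome 2, 92233991 to 92264388) had 9.62, 10.2, 8.68 and 9.81 CPM in day 12 replicates 1 to 4, against 9.91, 8.12 and 7.92 CPM in steady-state replicates 1 to 3. The groups overlapped, and the libraries differed less than for any other tested member at day 12, with 1.18-fold between the highest and the lowest. The log2 fold change was 0.15 (95% interval -0.17 to 0.46, edgeR adjusted p = 0.506). The ratio of Cry1 to Cry2 read counts, which needs no scaling of libraries, was 1.42 to 2.28 at day 12 and 0.741 to 1.22 in steady state. It was above 1 in all day 12 libraries and in steady-state replicate 3.

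Nr1d1 encodes REV-ERB alpha, a haem-binding repressor that also acts on inflammatory genes of mouse macrophages (ENSMUSG00000020889, chromosome 11, 98658758 to 98666159). It had 1.03, 1.16, 1.32 and 0.958 CPM in day 12 replicates 1 to 4, against 1.75, 3.25 and 1.76 CPM in steady-state replicates 1 to 3. The groups did not overlap, and steady-state replicate 2 was far above the other libraries. The values rest on 33 to 50 reads per library at day 12 and 55 to 116 in steady state. Nr1d1 fell by 1.01 on the log2 scale (SE 0.29, edgeR adjusted p = 0.0365), and by 0.65 without steady-state replicate 2 (adjusted p = 0.193). Of its 3077 exon bases in GENCODE M21, 263 are shared with Thra on the opposite strand. Thra averaged 15.8 CPM at day 12 and 29.4 CPM in steady state (log2 fold change -0.89, adjusted p = 0.0037), and as the sources used here do not say whether reads were counted by strand, the level of Nr1d1 is uncertain.

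Nr1d2 encodes the related REV-ERB beta (ENSMUSG00000021775, chromosome 14, 4230569 to 4265642). It had 6.76, 7.14, 6.00 and 2.84 CPM in day 12 replicates 1 to 4, against 10.8, 13.9 and 9.13 CPM in steady-state replicates 1 to 3. The groups did not overlap, with day 12 replicate 4 lowest. Nr1d2 fell by 0.99 on the log2 scale (SE 0.29, edgeR adjusted p = 0.0411). The call was lost in 6 of 14 alternative fits (adjusted p up to 0.168), and the log2 fold change stayed between -1.12 and -0.75. Both REV-ERB genes were highest in steady-state replicate 2 and lowest in day 12 replicate 4.

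Dbp encodes the D-box activator that is among the most strongly rhythmic transcripts of mouse tissues (ENSMUSG00000059824, chromosome 7, 45354512 to 45359627). It had 0.795, 0.855, 0.474 and 0.464 CPM in day 12 replicates 1 to 4, against 2.28, 1.37 and 3.16 CPM in steady-state replicates 1 to 3. The groups did not overlap, although these are low levels, from 16 to 34 reads per library at day 12 and from 49 to 99 in steady state. Dbp fell to 0.647 ± 0.207 CPM at day 12 (SD, n = 4), against 2.27 ± 0.895 CPM in steady state (SD, n = 3). This was the largest change of the 9 tested members, a log2 fold change of -1.80 (SE 0.36, edgeR adjusted p = 0.00792), and it ran from -2.07 to -1.49 over the 14 alternative fits, which all kept the call. Dbp shares 539 of its 2993 exon bases in GENCODE M21 with Sphk2 on the other strand, and Sphk2 averaged 63.5 CPM at day 12 and 65.1 CPM in steady state (log2 fold change -0.04, adjusted p = 0.908). The level of Dbp is therefore uncertain in the same way as that of Nr1d1.

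**Figure D2:**
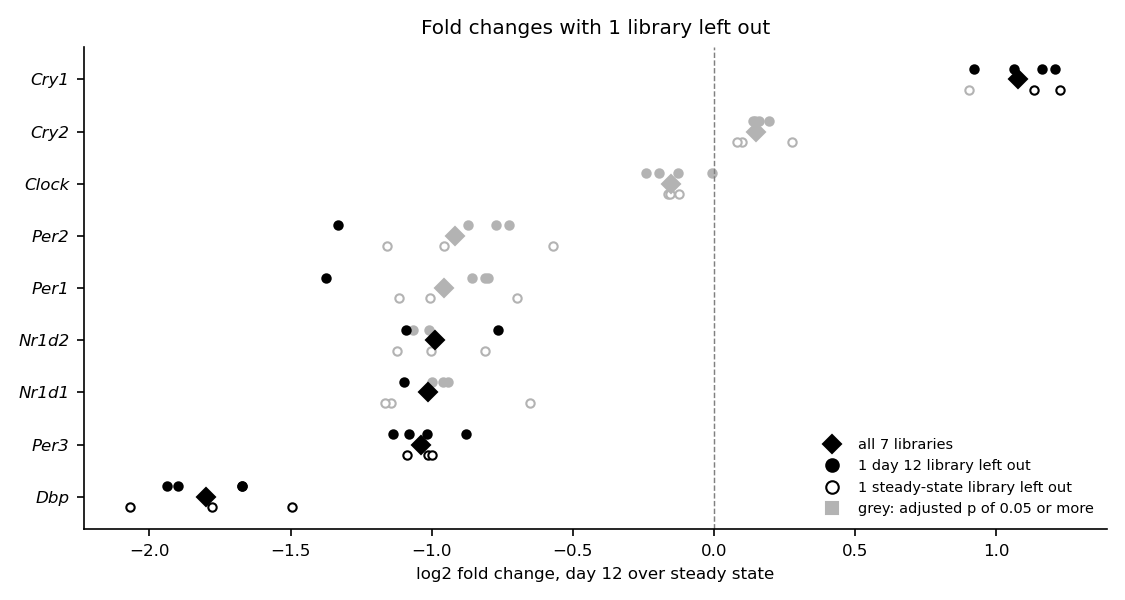
Log2 fold change of day 12 over steady state (horizontal axis) for the 9 tested clock genes with all 7 libraries (diamonds), with 1 day 12 library left out (filled circles) and with 1 steady-state library left out (open circles), black where the edgeR adjusted p was under 0.05 and grey otherwise. Dbp and Per3 are black throughout, and the sign was the same in all of these fits for each gene.

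The D-box factor genes Tef and Nfil3 had more CPM than Dbp in every library. Tef, an activator of the same family (ENSMUSG00000022389), had 14.8, 15.2, 9.18 and 11.6 CPM in day 12 replicates 1 to 4, against 27.6, 24.3 and 24.0 CPM in steady-state replicates 1 to 3. It fell by 0.99 on the log2 scale (SE 0.18, edgeR adjusted p = 0.00423). Nfil3, the D-box repressor, which also has roles in cytokine responses (ENSMUSG00000056749), had 155, 121, 165 and 143 CPM in day 12 replicates 1 to 4, against 40.6, 47.6 and 46.7 CPM in steady-state replicates 1 to 3. It rose 3.25-fold (log2 fold change 1.70, SE 0.13, adjusted p = 9.11e-05). Hlf, another activator of the family, had 0 reads in all 7 libraries. Within each library the ratio of Nfil3 to Dbp read counts was 141 to 349 at day 12 and 14.8 to 34.7 in steady state, and that of Nfil3 to Tef was at least 7.94 at day 12 and at most 1.96 in steady state. Neither ratio overlapped between the groups. This was fixed by the levels themselves, as Nfil3 was higher, and Dbp and Tef lower, in every day 12 library. All such pairs of genes were chosen after their values were seen.

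**Figure D3:**
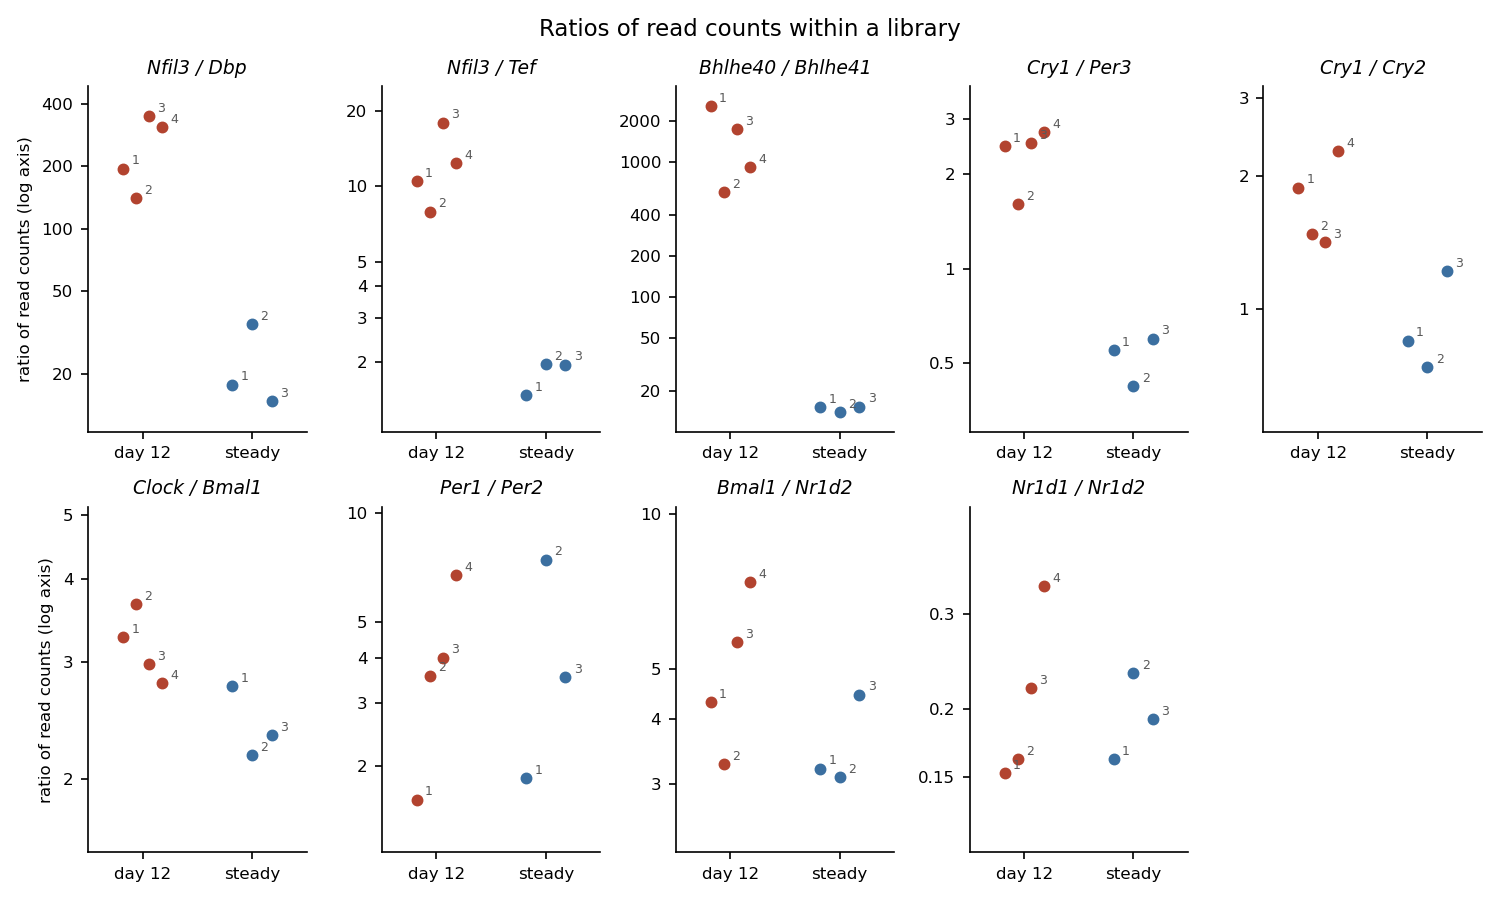
Ratios of read counts of paired clock genes within each library on log axes, with day 12 libraries (red, left) and steady-state libraries (blue, right) numbered by replicate and Bmal1 standing for the table's Arntl. The groups overlap in the ratios of Per1 to Per2, Bmal1 to Nr1d2 and Nr1d1 to Nr1d2, and not in the others. The ratio of Nfil3 to Dbp was 141 to 349 at day 12 and 14.8 to 34.7 in steady state. For Nfil3 to Dbp, Nfil3 to Tef, Cry1 to Per3 and Bhlhe40 to Bhlhe41 the separation was fixed in advance. The genes of these pairs already parted the groups in opposite directions. All pairs were chosen after their values were seen.

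Promoter sequences show which clock elements lie near the starts of these genes. RefSeq windows in build GRCm38.p6, from 250 bases before to 50 after a gene's start, were at hand for 9 of the 10 members, not for Per2. Some genes had several windows, and for Per1 and Bmal1 a further window without any matched motif is not shown. The windows are printed 5′ to 3′ along the gene's own strand, with each matched motif in capitals. Per3 is shown for its 2 D-boxes (chr4:151044616-151044915, minus strand), Cry1 for an E-box and an E-prime-box (chr10:85185005-85185304, minus strand), Nr1d1 for an E-prime-box (chr11:98775328-98775627, minus strand), Per1 for an E-box (chr11:69098699-69098998, plus strand), and Bmal1 for the element to which REV-ERB and ROR receptors bind (chr7:113207261-113207560, plus strand).
Per3: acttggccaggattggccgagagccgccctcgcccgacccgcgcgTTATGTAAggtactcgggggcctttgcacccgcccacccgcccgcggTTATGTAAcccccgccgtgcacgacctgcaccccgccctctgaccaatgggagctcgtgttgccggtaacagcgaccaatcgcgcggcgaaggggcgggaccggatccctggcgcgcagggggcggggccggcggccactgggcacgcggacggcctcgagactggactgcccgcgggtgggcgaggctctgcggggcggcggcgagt
Cry1: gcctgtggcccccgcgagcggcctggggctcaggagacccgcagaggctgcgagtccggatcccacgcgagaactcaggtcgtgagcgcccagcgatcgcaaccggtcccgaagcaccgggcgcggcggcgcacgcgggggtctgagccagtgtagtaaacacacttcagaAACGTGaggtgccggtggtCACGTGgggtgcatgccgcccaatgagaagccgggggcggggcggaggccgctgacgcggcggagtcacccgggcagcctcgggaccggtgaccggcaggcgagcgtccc
Nr1d1: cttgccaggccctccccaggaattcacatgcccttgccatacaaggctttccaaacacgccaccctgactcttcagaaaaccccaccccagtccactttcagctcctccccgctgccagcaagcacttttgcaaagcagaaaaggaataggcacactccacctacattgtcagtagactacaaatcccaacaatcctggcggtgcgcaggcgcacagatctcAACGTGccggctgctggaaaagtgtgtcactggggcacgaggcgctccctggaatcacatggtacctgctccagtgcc
Per1: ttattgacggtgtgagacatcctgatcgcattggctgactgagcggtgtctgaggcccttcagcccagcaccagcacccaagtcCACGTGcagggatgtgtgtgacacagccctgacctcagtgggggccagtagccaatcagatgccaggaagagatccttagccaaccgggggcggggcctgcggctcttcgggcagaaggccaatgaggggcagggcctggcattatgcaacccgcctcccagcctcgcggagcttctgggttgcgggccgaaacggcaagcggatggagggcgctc
Bmal1: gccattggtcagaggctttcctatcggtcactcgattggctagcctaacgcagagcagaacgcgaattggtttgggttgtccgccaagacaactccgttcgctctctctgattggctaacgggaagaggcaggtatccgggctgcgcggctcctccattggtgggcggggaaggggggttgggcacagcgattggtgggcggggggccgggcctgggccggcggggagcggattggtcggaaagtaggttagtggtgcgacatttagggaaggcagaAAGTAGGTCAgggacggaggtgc

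The motifs were searched on both strands as CACGTG for the E-box, CACGTT for the E-prime-box, TTATGTAA or TTACGTAA for the D-box and TGACGTCA for the cAMP response element, and by its name the REV-ERB and ROR element, an A- and T-rich start before the half-site AGGTCA or GGGTCA. No matches overlapped in these windows. The 2 D-boxes of Per3 begin 205 and 158 bases before its start. Of all 32851 promoter windows, 1.06% held a D-box and 8 windows held 2 or more. An E-box was found in 7.15% of all windows, an E-prime-box in 4.68% and the REV-ERB and ROR element in 0.435%. In the windows of Dbp, Nr1d2, Clock and Npas2 these letters were not found, and Cry2 held an E-prime-box. Among tested genes with a D-box window, 8 of 89 rose and 11 fell (8.99% and 12.4%), against 10.4% and 11.3% of the 10160 tested genes with any window. A match is a run of letters and not a measured binding site.

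The rest of the pathway was read from a list of 48 symbols for other clock genes and clock regulators, of which 44 were in the table and 41 were tested. Of these 41, 7 rose and 7 fell, with a median log2 fold change of -0.08, beside 10.1% and 10.2% of all genes tested. The E-box repressor genes Bhlhe40 and Bhlhe41, close relatives, went opposite ways. Bhlhe40 had 549, 403, 504 and 477 CPM in day 12 replicates 1 to 4, against 217, 193 and 208 CPM in steady-state replicates 1 to 3 (log2 fold change 1.23, edgeR adjusted p = 0.000353). Bhlhe41 had 0.212, 0.679, 0.289 and 0.522 CPM in day 12 replicates 1 to 4, against 14.2, 13.7 and 13.5 CPM in steady-state replicates 1 to 3, and was 32.1-fold lower at day 12 (log2 fold change -5.01, adjusted p = 4.97e-05). The log2 fold change of Bhlhe41 was the most negative of the list.

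Noct, which encodes nocturnin, a phosphatase of NADPH with a rhythmic transcript in mouse tissues, had the largest rise of the list. It had 91.4, 49.0, 85.9 and 121 CPM in day 12 replicates 1 to 4, against 3.17, 7.09 and 1.34 CPM in steady-state replicates 1 to 3 (log2 fold change 4.48, SE 0.60, edgeR adjusted p = 0.0028). The steady-state libraries differed among themselves, and the log2 fold change was 5.25 without steady-state replicate 2 and 4.07 without replicate 3. Prkaa2, a catalytic subunit of the energy sensor AMPK, rose to 15.5 ± 8.66 CPM at day 12, against 1.13 ± 0.0849 CPM in steady state (adjusted p = 0.00109). Nampt, the rate-limiting enzyme of NAD salvage, rose to 170 ± 28.1 CPM at day 12, against 85.7 ± 5.06 CPM in steady state (adjusted p = 0.00155). The ubiquitin ligase subunit gene Fbxw7 rose 1.95-fold, and the deubiquitinase gene Usp2 rose 4.08-fold at low levels (1.81 ± 1.16 CPM at day 12 and 0.439 ± 0.0991 CPM in steady state). Usp2 lost its call without any 1 steady-state library (adjusted p = 0.0525 to 0.0815).

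Among regulators that fell, Csnk1e encodes a kinase of the PER proteins. It averaged 20.2 ± 1.96 CPM at day 12 and 29.8 ± 1.39 CPM in steady state (log2 fold change -0.56, edgeR adjusted p = 0.0076). Zfhx3, a transcription factor of the central clock of the brain, fell by 1.16 on the log2 scale (adjusted p = 0.000257). Wee1, a clock-controlled kinase that holds back mitosis, had 1.74 ± 0.898 CPM at day 12 and 5.44 ± 2.73 CPM in steady state (adjusted p = 0.0335), and lost its call in 6 of 14 alternative fits, among them those without day 12 replicate 1 or 3 or steady-state replicate 1 or 2 (up to 0.169). Of 20 cell cycle genes tested, edgeR called 0 higher and 1 lower (10.1% and 10.2% of all genes tested), with a median log2 fold change of -1.09. After adjustment DESeq2 called 0 higher and 1 lower, and limma-voom called 0 higher and 2 lower. At an unadjusted p under 0.05, each tool had 0 higher, with 1 lower by edgeR, 3 by DESeq2 and 10 by limma-voom. Libraries of 1 group differed widely in these genes, with sums of 166 to 480.1 CPM at day 12 and 315 to 875 CPM in steady state. Rora, an activator of Bmal1, and Ciart, a repressor of CLOCK and BMAL1, did not pass. Rora averaged 10.6 ± 1.57 CPM at day 12 and 14.6 ± 2.85 CPM in steady state (adjusted p = 0.0886), and Ciart 0.553 ± 0.223 CPM at day 12 and 0.875 ± 0.174 CPM in steady state (adjusted p = 0.250).

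**Figure D4:**
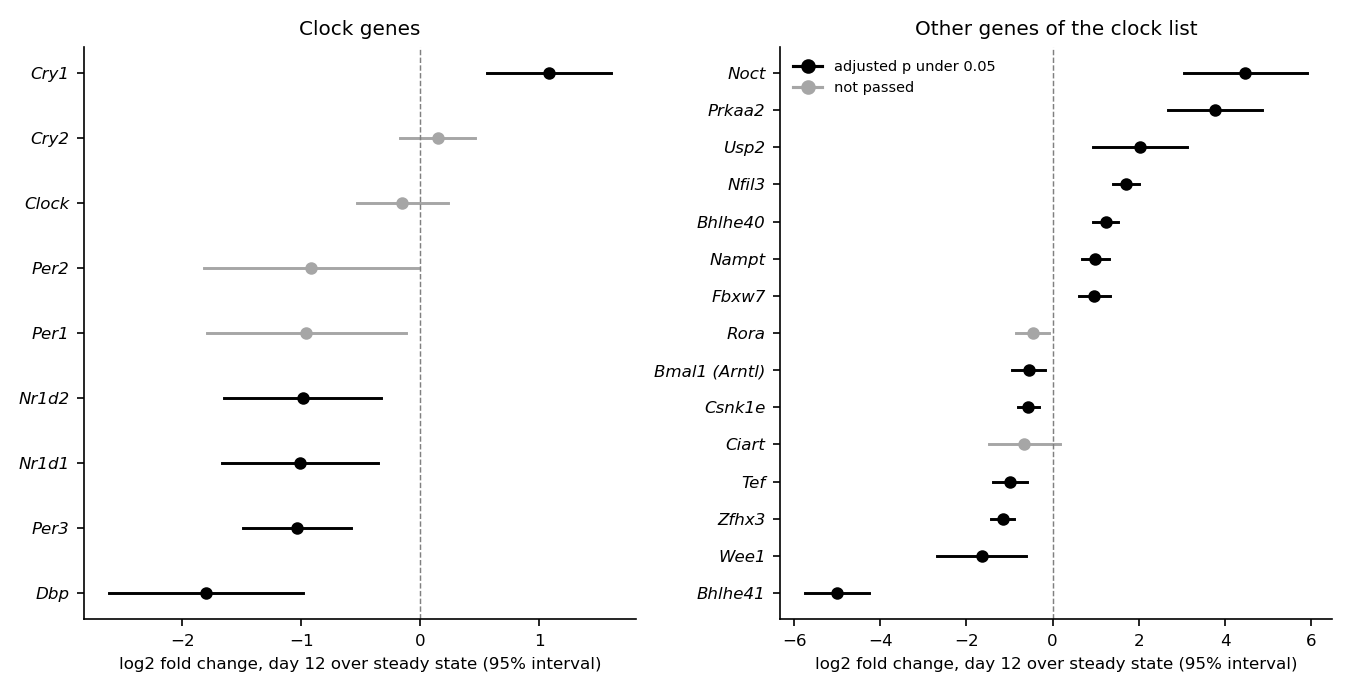
Log2 fold change of day 12 over steady state with its 95% interval from edgeR (horizontal axes, scaled separately) for the 9 tested clock genes (left) and for 15 other genes of the clock list (right), black where the adjusted p was under 0.05 and grey otherwise. Cry1 is the member with a called rise, at 1.08, and the other genes run from -5.01 for Bhlhe41 to 4.48 for Noct. Most of the 15 are shown because they passed the test. Of all 41 tested genes of that list, 7 rose, 7 fell and 27 did not pass.

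Other pairs of clock genes were compared within each library in the same way. The ratio of Cry1 to Per3 read counts was 1.61 to 2.74 at day 12 and 0.422 to 0.598 in steady state. The ratio of Clock to Bmal1 read counts was 2.79 to 3.67 at day 12 and 2.17 to 2.76 in steady state, with a narrow gap between the groups. The ratio of Bmal1 to Nr1d2 read counts overlapped between the groups (3.27 to 7.37 at day 12 and 3.09 to 4.46 in steady state), as did that of Nr1d1 to Nr1d2 (0.153 to 0.337 at day 12 and 0.162 to 0.233 in steady state). The ratio of Bhlhe40 to Bhlhe41 read counts was 593 to 2591 at day 12 and 14.1 to 15.5 in steady state. For this pair and for Cry1 and Per3 the separation was fixed by genes that already parted the groups in opposite directions.

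Levels of different genes were set side by side as CPM per kb of merged exons in GENCODE M21. Merged exons take in every annotated transcript of a gene and can be longer than the transcript expressed. The order is therefore approximate. At day 12 the order from the top was Clock (6.19 ± 1.37 CPM per kb), Cry1 (5.08 ± 1.29), Per1 (3.94 ± 2.01), Cry2 (1.52 ± 0.102), Per2 (1.08 ± 0.575), Nr1d2 (1.05 ± 0.361), Per3 (0.774 ± 0.197), Nr1d1 (0.363 ± 0.0508) and Dbp (0.216 ± 0.0691), with Npas2 last. In steady state it was Per1 (7.64 ± 2.33 CPM per kb), Clock (6.88 ± 0.0821), Cry1 (2.41 ± 0.556), Nr1d2 (2.09 ± 0.449), Per2 (2.05 ± 0.793), Per3 (1.59 ± 0.0995), Cry2 (1.37 ± 0.173), Dbp (0.759 ± 0.299) and Nr1d1 (0.732 ± 0.281), with Npas2 last. Neighbours whose library ranges did not overlap at day 12 were Per1 and Cry2, Per3 and Nr1d1, and Nr1d1 and Dbp. In steady state they were Clock and Cry1, and Cry2 and Dbp. In both groups Npas2 lay below its neighbour as well, and all other neighbours overlapped.

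**Figure D5:**
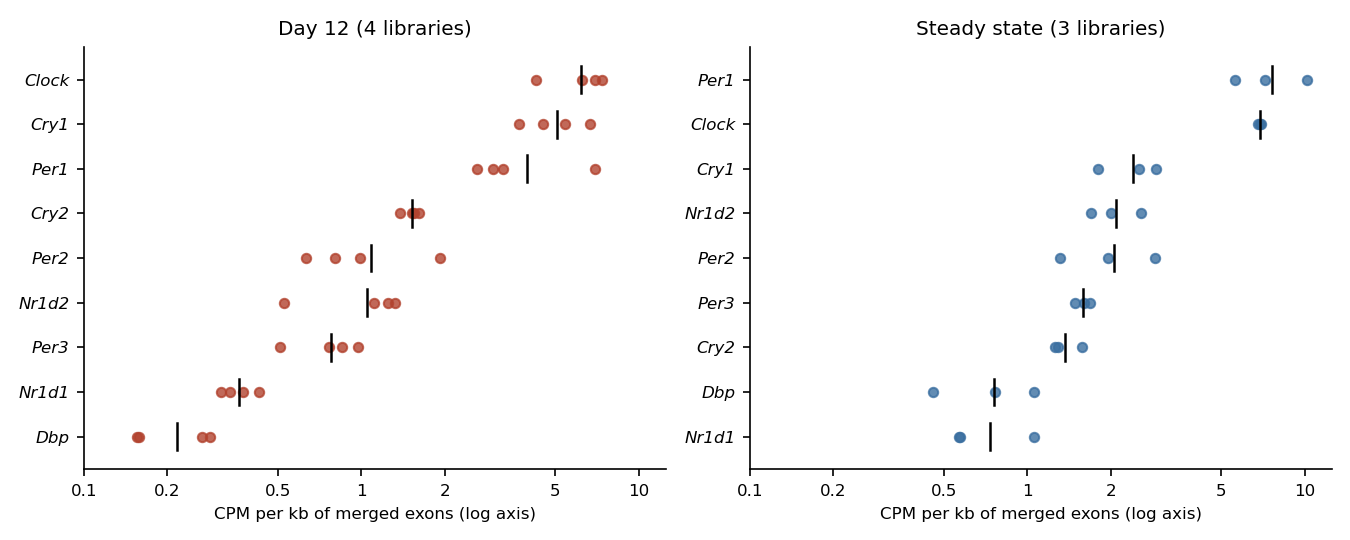
Levels per kb of merged exons on log axes for 9 clock genes, ordered by mean, at day 12 (left, 4 libraries) and in steady state (right, 3 libraries), with a point for each library and a bar for the mean; Npas2 is left out because it had 0 reads in 6 of 7 libraries. Clock, Cry1 and Per1 are the highest and Dbp and Nr1d1 the lowest in both groups.

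Genes with the most similar course over the 7 libraries were sought for the members with the lowest p in each direction, by Pearson's r of log2 CPM among 9319 named protein-coding genes with a mean of at least 5 CPM. For Cry1 these were Usp39 (r = 0.995), Epb41l1 (0.990) and Ppif (0.990), and 60 genes had an r over 0.95. For Per3 they included Usp22 (r = 0.987) and Nuak1 (0.987), and 124 genes had an r over 0.95. With 7 libraries in 2 groups, such values describe these libraries only. A high r did not mean a change of like size. Usp39 and Usp22 had log2 fold changes of 0.26 and -0.21 and did not pass edgeR's test. Epb41l1, Ppif and Nuak1 passed, with log2 fold changes of 0.57, 0.77 and -2.98.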

How the data were processed

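RNA of Tim4+ peritoneal macrophages was measured in 4 day 12 and 3 steady-state libraries, grouped and numbered by the sample titles. Per the labels' protocols, directional libraries were made from poly-A RNA with a NEBNext Ultra II kit and sequenced as single reads. The protocol speaks of 3 biological replicates per condition and the titles give 4 for day 12, and nothing else says that libraries are separate animals, so that p-values take in only the spread among libraries, which may be technical. The authors deposited raw read counts per gene with GRCm39 coordinates and no normalisation. Per the submitters' processing notes, the tools were DESeq2 1.40.2, Subread 2.0.6 with featureCounts, SAMtools 1.10 and STAR 2.7.11a. The sources used here do not give the annotation release, the strand setting or how multimapping reads were treated, which leaves overlapping genes uncertain.

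Counts were tested with edgeR 4.0.16 in R 4.3.3 (quasi-likelihood, robust, TMM, group as the term) on 15981 genes that passed filterByExpr (minimum count 10, minimum total 15), with Benjamini-Hochberg adjustment over all of them at 0.05. Each standard error is the log2 fold change divided by the root of its F, and 95% intervals came from the moderated degrees of freedom. Log2 CPM used a prior count of 2. The procedure was tested on simulated counts. DESeq2 1.42.0 and limma-voom (limma 3.58.1), other scalings and filters, a replicate block and the loss of each library were tried as alternatives. Marker sums without their most abundant gene, and the cell cycle counts by other tools and at unadjusted p, were added after seeing the data. Merged exon lengths came from GENCODE M21 by Ensembl identifier, and promoters from RefSeq.

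The 10 members and all gene lists were chosen with earlier results of these data known. Named in full were the members. Of the other clock genes, all that passed were named, with Bmal1, Rora, Nfil3, Tef, Hlf, Ciart, Bhlhe40 and Bhlhe41 in any case. Of the glucocorticoid and immediate early lists, the 2 lowest p in each direction were named, and of likeness the 3 highest r. A few results that these rules name are not reported here. The symbols Bmal1, Bmal2, Gm129 and Chrono were not found as symbols, and in the table Bmal1 is Arntl.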

Additional observations from a re-analysis of the deposited data

Results flagged for a closer look

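In the day 12 group, 2 of 24 clock and clock-related genes had a library far from the other 3 by Dixon's criterion for 4 values, which chance meets in about 1 of 20 groups. In both it was day 12 replicate 4. Per1 stood at 39.0 CPM there, against 14.7 to 18.2 CPM in the other day 12 libraries. Usp2 stood at 3.54 CPM, against 1.09 to 1.31 CPM. In the same library the difference between long and short transcripts was -0.199 on the log2 scale. Its part in these values was not tested.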

How the results depend on the processing

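Over 14 alternative fits of each of the 9 tested members, 126 values in all, the sign was the same throughout, 107 also stayed on the same side of an adjusted p of 0.05, 14 lost a call and 5 gained one. Leaving out 1 library at a time gave 2 to 4 members lower, 0 to 1 members higher, 4 to 9 other clock genes lower and 6 to 9 higher, and over all genes 857 to 2188 higher and 904 to 2411 lower. Without any 1 steady-state library, Dbp and Per3 were the members still called lower. DESeq2, which also called Per1, gave 5 members lower, and total counts without TMM gave 3, without Nr1d2 (adjusted p = 0.0504). Npas2 has no value in these fits. Same-numbered libraries did not deviate together (r = -0.141, 0.00775 and 0.203 for numbers 1, 2 and 3), and of the day 12 libraries only number 3 correlated best with its own number. With the replicate number as a block, where day 12 replicate 4 has no partner, 1 member was higher and 5 lower (Dbp, Nr1d2, Per1, Per2 and Per3), and 1989 genes were higher and 2289 lower. The low counts of Dbp, Nr1d1 and Ciart limit their precision.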

Other observations

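Per1 is also known as a direct target of the glucocorticoid receptor and as an immediate early gene of cAMP signalling, so lists of both kinds were read beside it. Of 15 tested genes on the glucocorticoid list, 1 rose and 6 fell, beside 10.1% and 10.2% of all genes tested. Their median log2 fold change was -0.33. The list holds targets of the receptor and also Nr3c1, the gene of the receptor itself, which is among the 6. Nr3c1 averaged 132 ± 21.5 CPM at day 12 and 259 ± 16.7 CPM in steady state (log2 fold change -0.98, edgeR adjusted p = 0.00162). It was named after its values were seen. Tsc22d3, which encodes the glucocorticoid-induced leucine zipper GILZ, had 51.5, 50.5, 50.4 and 66.5 CPM in day 12 replicates 1 to 4, against 171, 232 and 212 CPM in steady-state replicates 1 to 3 (log2 fold change -1.90, edgeR adjusted p = 8.78e-05). Like Per1, it was highest in day 12 replicate 4 and in steady-state replicate 2. Of the others called lower, Fkbp5 was highest in the same libraries, and Sesn1, Zbtb16, Klf9 and Nr3c1 were not highest in day 12 replicate 4. These orders were read after the values were seen, and whether they bear on Per1 was not tested. Sesn1, a stress-inducible inhibitor of growth signalling, fell to 77.3 ± 11.2 CPM at day 12, against 194 ± 15.2 CPM in steady state (adjusted p = 0.000242). The metallothionein gene Mt2 was the member that rose, to 5.22 ± 3.16 CPM at day 12, against 1.06 ± 0.558 CPM in steady state (adjusted p = 0.0217). Fkbp5 and Zbtb16, chosen after their values were seen, fell as well (log2 fold change -0.88 and -1.42). Dusp1 of the same list, likewise chosen, averaged 232 CPM at day 12 and 254 CPM in steady state and did not pass. Mt1 and Cdkn1a, also chosen so, had log2 fold changes of 0.64 and 0.46 and did not pass either (edgeR adjusted p = 0.0502 and 0.0987).

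Of 21 tested immediate early genes, 10 rose and 2 fell, beside 10.1% and 10.2% of all genes tested, with a median log2 fold change of 0.70. Egr1, a zinc finger factor induced within minutes of stimulation, had 45.3, 60.0, 36.9 and 34.5 CPM in day 12 replicates 1 to 4, against 6.02, 5.77 and 7.89 CPM in steady-state replicates 1 to 3 (log2 fold change 2.75, edgeR adjusted p = 0.000109). Fosb, a subunit of AP-1, rose to 9.19 ± 1.70 CPM at day 12, against 0.931 ± 0.422 CPM in steady state (adjusted p = 0.000265). Nr4a2, an orphan nuclear receptor, and the Kruppel-like factor gene Klf6 were the 2 that fell (log2 fold change -1.39 and -0.72). Per1 itself had a log2 fold change of -0.96 and did not pass. What part handling of the cells had in these levels was not tested.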
